A study of Mus musculus with 11 samples.

Results

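The regions described here are stretches of open chromatin that lay between genes and carried a peak in every library of the series. They numbered 8015 of 82662 merged regions on chromosomes 1 to 19 of mouse build mm10, or 9.70%. ATAC-seq marks open chromatin with a transposase that inserts sequencing adapters where DNA is accessible, and a peak is a place with more insertions than the background. The study compared the accessible chromatin of the lung epithelium of mouse fetuses at E17.5 with and without 2 related regulators. There were 5 knockout libraries, from Prdm3/16KO fetuses, in which floxed alleles of Prdm3 and of Prdm16 were deleted with ShhCre, a Cre recombinase driven from the sonic hedgehog locus and active in lung epithelium. There were 6 libraries labelled Control, whose alleles the labels do not spell out. The knockouts came from a cross of Prdm3fl/fl Prdm16fl/wt ShhCre+ males with Prdm3fl/fl Prdm16fl/fl females, as the labels describe it. All cells were collected from dissociated lungs by positive selection with EpCAM microbeads. EpCAM is a surface protein of epithelial cells. The labels do not say whether each library came from a separate fetus, so p-values measure the spread between libraries, which may be technical.

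Prdm3, listed as Mecom in the gene table, and Prdm16 encode zinc finger proteins that bind DNA and recruit chromatin-modifying complexes. Open chromatin far from genes includes enhancers, silencers, insulator sites bound by CTCF, and the starts of non-coding RNAs. An enhancer can act on a gene that is not its nearest neighbour. Gene names below therefore say where a region lies, not which gene it acts on, and a region near a gene is no measure of that gene's expression.

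The regions were chosen from measured values. From each library the peaks with the highest -log10 p were kept, as many as the shortest list held, and overlapping peaks of all libraries were merged. A region counted when all 11 libraries had a peak in it, when it lay outside every protein-coding gene body, and when it was more than 1 kb from either end of such a gene. Peak strength and presence therefore chose the regions, and their level of strength is described without a test. The rule treated all libraries alike and did not use the difference between genotypes, which was fitted over a larger set of regions. Strength is given by rank: a score of 1 goes to a library's top peak, and the score falls evenly to near 0 at the last peak kept. A region takes the score of its best peak in each library. Because every library had a peak, no region could be absent from one genotype, which bounds the differences that these regions can show.

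Merging gave 31466 intergenic regions, and 25.5% of them had a peak in all 11 libraries. Another 1956 were found in 10 libraries and 4555 in only 1. Of the regions found in all 11 libraries, 10439 lay at gene ends and 9885 inside genes, and the intergenic ones made up 28.3%. At the edge of the rule, 3 regions had scores of 0.000247, 0.000329 and 0.000932 in their weakest library and mean scores of 0.650, 0.752 and 0.553. They lay nearest to Veph1, Rasgef1b and Parm1. The 1956 intergenic regions with 1 library missing had a median score of 0.464 over the libraries with a peak. The missing library was knockout replicate 5 in 548 of them and control replicate 5 in 337. For distance, regions at 1008 bp from Bdh1 and 1011 bp from Abhd11 were just inside the rule, and regions at 987 bp from Tmem139 and 998 bp from Vmn2r87 just outside.

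The libraries differed in the length of their peak lists, with up to 85704 peaks in knockouts and 79525 to 112297 in controls. Read depth is unknown. The last peak kept had a -log10 p of 2.00 to 13.997 in knockout lists and 6.59 to 35.6 in control lists. The shortest list, that of knockout replicate 5, entered whole. It had 12050 peaks in these regions, or 16.98% of its peaks kept, against 15.0% to 15.4% in the other 4 knockouts and 14.4% to 16.4% in controls. Without this library the rule gave 8563 regions in place of 8015. Over the 8015 regions, Spearman's rho between the rank scores of 2 libraries was 0.891 to 0.918 within knockouts, 0.876 to 0.928 within controls and 0.609 to 0.685 between genotypes. These correlations run across regions of the same libraries and are a description only.

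Most of these regions have no annotated transcript, but some hold the start of a long non-coding RNA or a microRNA gene, and for those a sequence can be read. Of 11588 windows around annotated starts of long non-coding RNAs, from 250 bases before to 50 after the start, 403 had their start in one of 359 regions. The windows below are RefSeq sequences of GRCm38.p6, printed 5′ to 3′ on the strand of the RNA. They were chosen after their values were seen, as the strongest of these regions, the pair with the greatest fall and the pair with the greatest rise of rank score in knockouts. The first is Gm41239 at chr14:105822558-105822857, plus strand, in the strongest of these regions. The falling pair is 1810064F22Rik at chr9:22213811-22214110 and Gm41485 at chr16:87612372-87612671, both minus strand. The rising pair is Gm30263 at chr19:10366228-10366527 and Gm46545 at chr16:24082641-24082940, both minus strand. Capitals mark matches to the motifs listed afterwards.
Gm41239: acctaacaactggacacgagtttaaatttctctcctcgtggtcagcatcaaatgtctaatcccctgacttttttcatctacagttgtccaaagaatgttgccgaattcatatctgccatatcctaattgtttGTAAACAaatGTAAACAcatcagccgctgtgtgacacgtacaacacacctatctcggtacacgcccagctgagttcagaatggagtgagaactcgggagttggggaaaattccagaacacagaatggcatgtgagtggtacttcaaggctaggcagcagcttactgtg
1810064F22Rik: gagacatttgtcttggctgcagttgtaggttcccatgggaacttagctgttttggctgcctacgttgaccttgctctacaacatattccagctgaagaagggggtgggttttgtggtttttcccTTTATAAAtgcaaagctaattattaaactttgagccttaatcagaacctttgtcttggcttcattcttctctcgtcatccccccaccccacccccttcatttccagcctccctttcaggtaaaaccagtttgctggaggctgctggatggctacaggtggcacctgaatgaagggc
Gm41485: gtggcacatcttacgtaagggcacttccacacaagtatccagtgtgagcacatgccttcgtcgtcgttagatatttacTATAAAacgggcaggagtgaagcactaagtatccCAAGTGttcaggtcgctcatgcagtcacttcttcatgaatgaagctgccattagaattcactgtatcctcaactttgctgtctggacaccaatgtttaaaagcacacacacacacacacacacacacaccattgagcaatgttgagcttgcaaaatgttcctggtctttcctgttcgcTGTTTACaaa
Gm30263: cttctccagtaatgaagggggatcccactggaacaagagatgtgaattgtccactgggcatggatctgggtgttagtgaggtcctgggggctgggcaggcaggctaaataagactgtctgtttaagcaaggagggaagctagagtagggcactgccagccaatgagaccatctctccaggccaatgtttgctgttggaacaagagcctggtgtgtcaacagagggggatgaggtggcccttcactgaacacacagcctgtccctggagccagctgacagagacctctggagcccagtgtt
Gm46545: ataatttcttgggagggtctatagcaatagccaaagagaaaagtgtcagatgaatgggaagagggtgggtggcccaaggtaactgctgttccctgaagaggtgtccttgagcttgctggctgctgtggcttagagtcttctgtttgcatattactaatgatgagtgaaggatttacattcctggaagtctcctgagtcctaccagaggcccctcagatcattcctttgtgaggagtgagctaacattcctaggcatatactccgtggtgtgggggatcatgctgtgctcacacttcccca

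The motifs searched on both strands were the GC box GGGCGG, the TATA box TATAAA, the AP-1 site TGANTCA, the forkhead site TGTTTAC, the NK2 homeobox core CAAGTG and the core of the CTCF site, which is given by name. Gm41239 held 2 forkhead matches. The window of 1810064F22Rik held 2 overlapping TATA matches, 1 on each strand. Gm41485 held a TATA, a forkhead and an NK2 match, and no motif matched in the 2 rising windows. Among all 403 windows 38.2% had a GC box, against 16.3% of all 11588 long non-coding RNA windows and 35.7% of the 32851 start windows of genes of every kind. The CTCF core was in 5.71% of the 403 windows, against 2.16% of the non-coding and 3.43% of all start windows. The NK2 core was in 18.4%, against 14.5% and 13.6%, and the AP-1 site in 11.2%, against 9.31% and 7.81%. The TATA box was in 11.2%, against 15.5% and 13.6%, and the forkhead site in 4.22%, against 4.83% and 3.65%. These shares were not tested. Median GC content was 53.3% in the 403 windows, 48.3% in the non-coding and 52.7% in all start windows. A match is a run of letters, not a bound site.

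MicroRNA genes were a second source of sequence. Of 1005 hairpins in the table, 36 lay within 2 kb of one of 30 regions, and 13 overlapped a region. The mature sequences below belong to hairpins that the results name, though not to all of them. Capitals mark the seed, bases 2 to 8, which pairs with target RNAs.
mmu-miR-200c-3p: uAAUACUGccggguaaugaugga
mmu-miR-141-3p: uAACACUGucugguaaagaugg
mmu-let-7i-5p: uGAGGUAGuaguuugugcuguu
mmu-miR-210-3p: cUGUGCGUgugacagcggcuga
mmu-miR-17-5p: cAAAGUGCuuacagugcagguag
mmu-miR-20a-5p: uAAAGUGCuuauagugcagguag
mmu-miR-18a-5p: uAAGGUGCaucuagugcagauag
mmu-miR-19a-3p: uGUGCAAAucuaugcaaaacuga
mmu-miR-19b-3p: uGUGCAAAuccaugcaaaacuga
mmu-miR-92a-3p: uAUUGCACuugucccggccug
mmu-miR-135a-5p: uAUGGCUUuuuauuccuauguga
mmu-miR-34a-5p: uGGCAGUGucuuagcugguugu
The sequences are from RefSeq. miR-17 and miR-20a share the seed AAAGUGC, and miR-19a and miR-19b share GUGCAAA. The seeds of miR-200c and miR-141 differ, although both belong to the miR-200 group that is known for keeping cells epithelial.

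By rank score, though not by fold enrichment, the intergenic regions were about as strong as those inside genes and weaker than those at gene ends. Their median mean rank score was 0.705, against 0.716 inside genes and 0.835 at gene ends. The 5 knockout libraries had a median score over these regions of 0.710, 0.717, 0.707, 0.719 and 0.717. The 6 control libraries ranged from 0.722 to 0.740 with a median of 0.727. Every knockout value lay below every control value, by a margin that is small beside the score's range of 0 to 1. Inside genes the library medians were 0.720 to 0.731 in knockouts and 0.733 to 0.750 in controls. At gene ends they overlapped, at 0.835 to 0.846 in knockouts and 0.827 to 0.849 in controls. The share of strong regions followed the same order: 1159 to 1274 of the 8015 scored 0.9 or more in a knockout library and 1216 to 1470 in a control library, and these ranges overlapped.

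The regions ranged widely in strength. A mean score of 0.9 or more was reached by 1011, and 1042 had a mean below 0.5. The lowest mean was 0.230. In their weakest library 104 regions scored below 0.1. A region's score varied between libraries of 1 genotype by a median SD of 0.0502 over knockouts and 0.0524 over controls. The median width was 849 bp, with quartiles of 693 and 1052 bp, and 44.8% had exactly 1 peak in each of the 11 libraries. Regions at gene ends had a median width of 1119 bp, and 18.7% of them had 1 peak in each library. The median fold enrichment over background, the authors' ratio within each library, was 14.4 for the intergenic regions, 13.6 inside genes and 14.3 at gene ends.

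The 10 strongest regions held nearly the same rank in every library. A 492 bp region at chr12:97061365-97061856, 1140431 bp from Galc, which encodes a lysosomal galactolipid hydrolase, ranked 1 in all 5 knockouts and in all 6 controls. A 268 bp region at chr2:69355468-69355735, 12852 bp from the bile salt pump gene Abcb11, ranked 2 in each knockout and each control. A 495 bp region at chr5:60042662-60043156, 1765687 bp from G6pd2, ranked 3 in all knockouts, and 3 or 4 in controls. Regions near Eea1, which encodes an endosomal tether, Tyrp1 (2 regions, a melanin synthesis gene), Nxph1 and Ccnh, which encodes cyclin H, ranked between 6 and 22 in every library. The regions near Akr1e1 and Fgfbp1 ranked 20 to 163.

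Their fold enrichment barely moved between libraries. The Galc region had a fold enrichment of 33.5 ± 0.258 in knockouts and 33.3 ± 0.284 in controls (SD, n = 5 and 6). The Abcb11 region had 64.2 ± 0.442 in knockouts and 62.8 ± 0.615 in controls. The coefficient of variation over the 11 libraries was 0.821% and 1.44% in these, and 6.40% at most among the 10, in the Akr1e1 region. The median over the 8015 regions was 12.8%, and 99 regions were below 5%. The summit of the Galc region varied by 1.48 bp (SD over 11 libraries) and that of the Abcb11 region by 0.302 bp, against a median of 12.6 bp over all the regions. No list of genome segments known for anomalous signal was applied, and whether these regions belong to such a list was not tested.

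Distance to genes spread over more than 3 orders of magnitude. The median distance to the nearest protein-coding gene was 32873 bp, with quartiles of 10672 and 98848 bp. Within 10 kb of a gene lay 1897 regions or 23.7%, between 10 and 50 kb 2939 or 36.7%, and between 50 and 100 kb 1196 or 14.9%. Between 100 and 500 kb lay 1759 or 21.9%, and 224 or 2.79% were farther than 500 kb. The 16041 intergenic regions found in 3 to 10 libraries had a somewhat larger median distance of 37401 bp, and 28.3% of them lay beyond 100 kb, against 24.7% of the regions found in all 11.

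**Figure D1:**
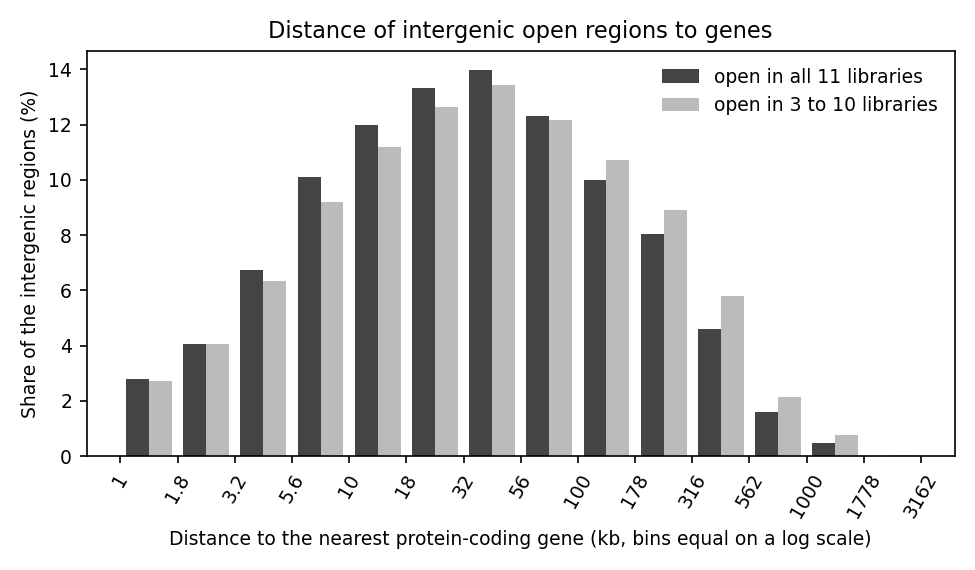
Share (%, y axis) of intergenic regions by distance to the nearest protein-coding gene (kb, x axis, bins equal on a log scale), for the 8015 regions open in all 11 libraries (dark bars, left) and the 16041 open in 3 to 10 (light bars, right). The tallest bars of both sets, 13.97% and 13.42%, lie between 10 and 100 kb, and the light bars are higher from 100 kb on.

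Strength hardly changed with distance. The median mean score was 0.696 within 10 kb, 0.704 at 10 to 50 kb, 0.711 at 50 to 100 kb, 0.712 at 100 to 500 kb and 0.737 beyond 500 kb. Across the 8015 regions Spearman's rho between mean score and distance was 0.0396, a description over regions that share their libraries. Median width was 798 bp in the nearest class and 882 bp at 100 to 500 kb.

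The 5 regions farthest from any gene showed each kind of result in the genotype comparison. The farthest, chr1:102628136-102628398, lay 2137537 bp from Cntnap5b, a contactin-associated adhesion gene. It scored 0.985, 0.943, 0.963, 0.952 and 0.986 in knockouts, and 0.733 to 0.905 with a median of 0.866 in controls. All knockouts lay above all controls, with a difference of 0.131 (SE 0.0308, limma adjusted p = 0.00319). This region is 263 bp wide, with a mean fold enrichment of 35.5 and a summit SD of 0.944 bp over 11 libraries. Whether it belongs to a segment known for anomalous signal was not tested. The next, near G6pd2, is among the strongest named above. A region 1627800 bp from Slc10a2, the ileal bile acid transporter gene, scored 0.743 ± 0.0580 in knockouts and 0.6996 ± 0.0668 in controls (SD, n = 5 and 6). The groups overlapped, and it was not called (limma adjusted p = 0.342). A region 1599898 bp from Celf4, an RNA-binding protein gene, fell to 0.401 ± 0.102 in knockouts, against 0.696 ± 0.0783 in controls, at a limma adjusted p of 0.000367. The fifth, 1509285 bp from Olfm4, which encodes an olfactomedin, scored 0.744 ± 0.0554 in knockouts and 0.645 ± 0.0583 in controls (limma adjusted p = 0.0305), a rise in which the groups still overlapped.

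Although all were open in both genotypes, nearly as many of these regions differed in strength as did not. Rank scores were compared with limma over all 65877 regions found in at least 3 libraries, at a Benjamini-Hochberg adjusted p of 0.05. In knockouts 2232 of the 8015 fell (27.8%), against 24.1% of all regions tested, and 1596 rose (19.9%), against 20.7% of all regions tested. Either change was called in 47.8%, against 44.8% of all regions tested. Regions inside genes gave similar shares, with 27.4% lower and 19.1% higher. At gene ends 8.93% were lower and 9.10% higher. The share of members called was thus near that of all regions tested, and well above that of gene ends in the same fit. The median difference, knockout minus control, was -0.0125 over the intergenic regions and -0.0117 over all regions tested. When the lists were used at their deposited lengths, the split of calls moved to 2989 lower and 1048 higher, from 58.3% to 74.0% lower among the calls. At those lengths a peak of equal rank scores higher in a longer list. The lists had a median of 95378 peaks in controls and 83272 in knockouts, so that split is not a measure of strength alone. With peaks ranked by fold enrichment 1392 were lower and 1256 higher. In that ranking 1131 of the 2232 falls and 938 of the 1596 rises were called again, and 27 regions were called in the opposite direction. In this bulk assay fewer cells with a region open and less opening per cell cannot be told apart.

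**Figure D2:**
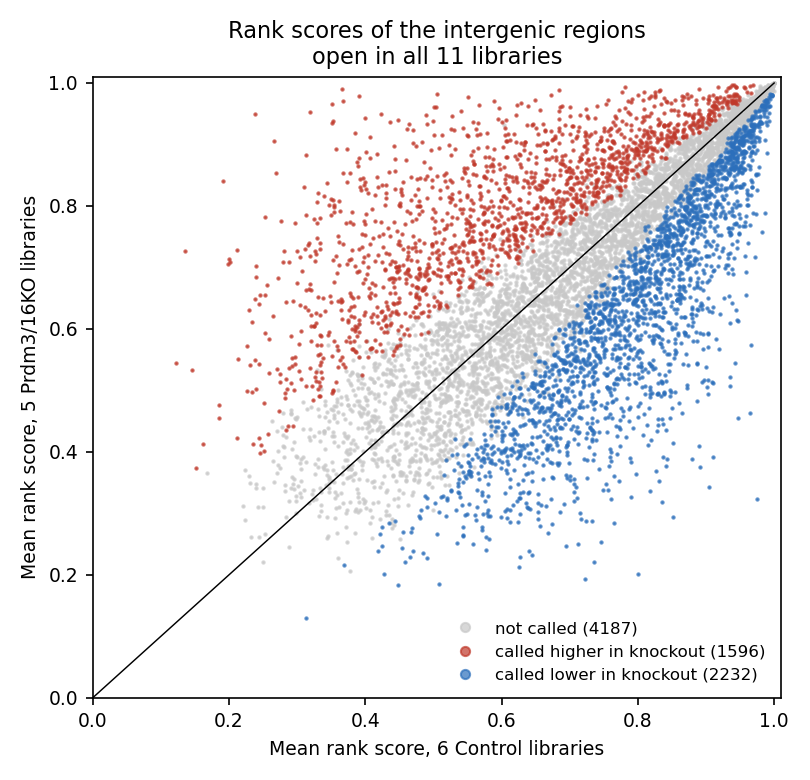
Mean rank score of each of the 8015 regions in 5 Prdm3/16KO libraries (y axis) against 6 Control libraries (x axis), with the line of equal scores. Points below the line in blue are the 2232 called lower in knockouts, points above it in red the 1596 called higher, and grey points the 4187 not called.

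Complete separation of the genotypes was common. In 1388 regions every knockout scored below every control (17.3%), against 13.6% of all regions tested. In 1070 every knockout scored above every control (13.3%), against 12.6% of all regions tested. A tested region that lacks a peak in libraries of both genotypes scores 0 in both and cannot separate. The shares over all regions tested are therefore held down. Of the 9885 regions inside genes with a peak in every library, 1641 separated with knockouts below and 1238 with knockouts above. The shares were not tested against each other. The changes were mostly moderate. Called differences had a median size of 0.159, against 0.0912 at gene ends and 0.277 over all regions tested, where regions missing from some libraries enter with a score of 0. A difference of 0.2 or more was found in 672 falls and 653 rises, and one of 0.5 or more in 10 falls and 25 rises. Falls thus outnumbered rises among the small changes and not among the greatest ones.

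The 8 greatest falls lay 30595 to 450863 bp from the nearest gene. The first, chr17:93237136-93237915, is 30595 bp from Adcyap1, which encodes the neuropeptide PACAP. It scored 0.323, 0.267, 0.416, 0.142 and 0.473 in knockouts, and 0.958 to 0.990 with a median of 0.979 in controls. The highest knockout reached less than the lowest control by a wide gap, and the fitted difference was -0.651 (SE 0.0471, limma adjusted p = 7.46e-08). A second region near the same gene, chr17:93541495-93542430, fell to 0.344 ± 0.114 in knockouts, against 0.905 ± 0.0410 in controls (SD, n = 5 and 6). It lies 334954 bp from Adcyap1.

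A region 201270 bp from Irs1, the insulin receptor substrate gene, scored 0.135, 0.139, 0.221, 0.158 and 0.358 in knockouts, and 0.736 to 0.846 with a median of 0.802 in controls. All knockouts were below all controls, at a difference of -0.598 (SE 0.0464, limma adjusted p = 1.37e-07). Next came regions near Klf14, a Krüppel-like factor gene, with a difference of -0.558, and near St8sia2, a polysialic acid synthase gene, with -0.528. A region 78282 bp from Stim2, a calcium sensor of the endoplasmic reticulum, fell by 0.519. A region 52667 bp from Met, which encodes the receptor of hepatocyte growth factor, scored 0.235, 0.240, 0.370, 0.399 and 0.348 in knockouts, and 0.779 to 0.913 with a median of 0.833 in controls. Here too the groups did not overlap, and the difference was -0.516 (SE 0.0397, limma adjusted p = 1.29e-07). The last, near the zinc finger gene Zfp462, had a difference of -0.516 and was called as well. At the first Adcyap1 region the fold enrichment was 10.1 ± 1.63 in knockouts and 27.8 ± 1.29 in controls (SD, n = 5 and 6).

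The 8 greatest rises lay 31956 to 595558 bp from the nearest gene. The first, chr2:122968071-122968806, is 158518 bp from Sqor, a mitochondrial sulfide oxidase gene. It scored 0.927, 0.964, 0.927, 0.984 and 0.944 in knockouts, and 0.125 to 0.439 with a median of 0.211 in controls. In knockouts it thus ranked among strong peaks and in controls among weak ones, with a difference of 0.711 (SE 0.0493, limma adjusted p = 4.85e-08). A region 92745 bp from Basp1, a membrane-associated signalling protein gene, scored 0.862, 0.841, 0.820, 0.822 and 0.856 in knockouts, and 0.0633 to 0.381 with a median of 0.169 in controls, without overlap. Its difference was 0.649 (SE 0.0541, limma adjusted p = 2.85e-07).

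A region 434749 bp from the gasdermin gene Gsdmc rose by 0.641, and one 595558 bp from Iftap, which encodes a cilium transport protein, by 0.633. The region 280105 bp from Veph1 scored 0.984 to 0.993 in knockouts, and 0.000247 to 0.593 with a median of 0.413 in controls. Its spread in controls, an SD of 0.223, was the widest of the 8, and its weakest control is the weakest score of any region that met the rule. Regions near Ccdc171, Cop1, which encodes a ubiquitin ligase, and Slc30a10, a manganese transporter gene, rose by 0.614, 0.603 and 0.590. In all 16 of these regions the knockout and control scores did not overlap.

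**Figure D3:**
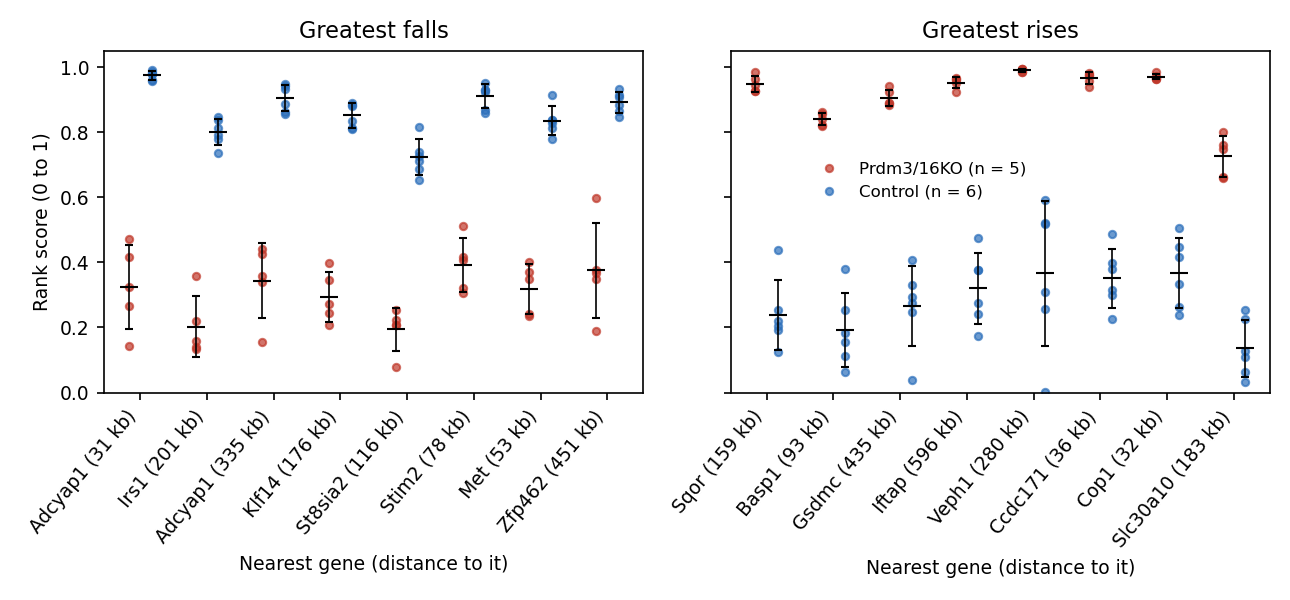
Rank score (y axis, 0 to 1) of the 8 intergenic regions with the greatest falls (left panel) and the 8 with the greatest rises (right panel) in 5 Prdm3/16KO libraries (red, left of each pair) and 6 Control libraries (blue), with mean and SD as black bars. The x axis gives the nearest gene and the distance to it, and in none of the 16 do the groups overlap.

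The share of called regions was higher in the classes farther from genes. Within 10 kb 24.6% were lower and 17.8% higher in knockouts, at 10 to 50 kb 27.1% and 19.5%, and at 50 to 100 kb 29.5% and 19.2%. At 100 to 500 kb 31.6% were lower and 22.1% higher. Beyond 500 kb, among 224 regions, 28.1% were lower and 29.9% higher. Taking both directions, the share was 42.4% in the nearest class and 58.0% in the farthest. The differences between distance classes were not tested, since regions are not replicates. Intergenic regions found in 3 to 10 libraries had 23.6% lower and 21.2% higher within 10 kb, and 21.2% lower and 41.0% higher beyond 500 kb.

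**Figure D4:**
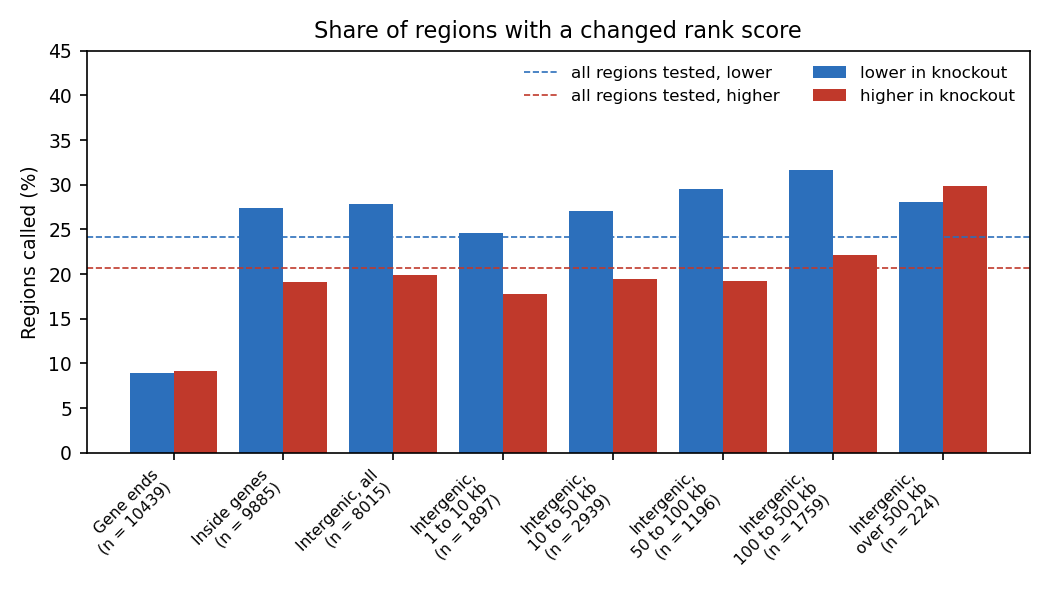
Share of regions (%, y axis) called lower (blue, left) and higher (red, right) in Prdm3/16KO at limma adjusted p under 0.05, for regions open in all 11 libraries at gene ends, inside genes and between genes, and for the intergenic ones by distance (x axis, with the number of regions). Dashed lines give 24.1% lower and 20.7% higher over all regions tested, and the bars at gene ends are the lowest.

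The share of called regions also differed between classes of strength, which was not tested. Among regions with a mean score above 0.9, 27.0% were lower and 12.7% higher in knockouts. Between 0.7 and 0.8 the shares were 31.8% and 22.5%, and at 0.4 or below they were 8.10% and 13.0%. Called differences had a median size of 0.0477 in the strongest class and 0.235 between 0.4 and 0.5. The classes were made from the same scores, which end at 1. A mean above 0.9 therefore leaves little room for a difference, and these sizes cannot be compared as a trait of the regions.

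These regions were not spread evenly. They had 4118 different nearest genes, of which 2434 had 1 region and 298 had 5 or more. With neighbours no more than 50 kb apart counted as a run, 59.9% of the regions lay in runs of 2 or more and 1146 in the 179 runs of 5 or more. Within runs there were 742 adjacent pairs of called regions. The pair changed in the same direction in 421 (56.7%) and in opposite directions in 321. Since 58.3% of all called regions were lower, unrelated regions would also often share a direction. The share was not tested. By nearest gene, 1628 genes had a lower region and 1254 a higher one, and 431 had both.

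The gene nearest to most of these regions was Klf6, a Krüppel-like transcription factor gene with 21. They lay 15547 to 620485 bp away, 8 fell and 3 rose. Their median score was 0.681 in knockouts and 0.770 in controls. The greatest fall among them was in a region 319087 bp away, with 0.477 ± 0.0785 in knockouts and 0.746 ± 0.0998 in controls (SD, n = 5 and 6). Adgrl2, an adhesion receptor gene, had 19, with 7 lower and 2 higher. Klf12, another Krüppel-like factor gene, had 17, with 6 lower and 1 higher, and a median of 0.607 in knockouts against 0.733 in controls. A region 309947 bp from Klf12 fell to 0.338 ± 0.160 in knockouts, against 0.750 ± 0.0750 in controls.

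Against these counts for single genes stand 24.1% lower and 20.7% higher over all regions tested, and no gene's count was tested against them. The growth regulator gene Myc had 18 regions, from 21189 to 721903 bp away, and 8 of them fell and 5 rose. The rises and falls were interleaved. A region 502519 bp away on one side rose to 0.770 ± 0.0370 in knockouts, against 0.519 ± 0.0544 in controls. One 212481 bp away on the other fell to 0.411 ± 0.0887 in knockouts, against 0.637 ± 0.0312 in controls (SD, n = 5 and 6). Foxa2, Spry2 and Zfp608 tied with 16 regions each. Of those nearest to Foxa2, a forkhead factor that opens chromatin in endoderm, 7 fell and 2 rose. For Spry2, a feedback inhibitor of FGF signalling, 6 fell and 3 rose. For the zinc finger gene Zfp608, 3 fell and 4 rose.

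The longest run held 13 regions in 195474 bp of chromosome 12 beside Arf6, a small GTPase gene, and Nemf. In it 2 fell and 2 rose. The second held 12 regions in 153444 bp of chromosome 14, all nearest to Spry2 at 60608 to 212828 bp. It contains the Gm41239 start printed above. That start scored 0.999 in all 5 knockouts and 0.996 to 0.998 in controls. Around it 5 regions fell and 2 rose, with differences from -0.156 to 0.211. The neighbour 60608 bp from Spry2 rose to 0.810 ± 0.0548 in knockouts, against 0.599 ± 0.0776 in controls, while the one at 91081 bp fell to 0.714 ± 0.0317 in knockouts, against 0.870 ± 0.0208 in controls (SD, n = 5 and 6). The run with the longest span of the 7 runs of 11 lay between Phlda1 and Krr1 on chromosome 10, where 1 fell and 5 rose. The counts in these runs stand beside 24.1% lower and 20.7% higher over all regions tested and were not tested against them.

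Regions near genes of lung epithelium were grouped by lists of genes. A region was counted for a gene when that gene was its nearest and lay within 100 kb. The counts stand beside 24.1% lower and 20.7% higher over all regions tested, and 27.8% lower and 19.9% higher over the 8015. None was tested against these shares. Of the regions counted for 18 genes of surfactant-making alveolar type 2 cells, 8 of 18 fell and 3 rose. The median difference over them was -0.0420, against -0.0125 over all 8015 regions. For 17 genes of alveolar type 1 cells, the thin gas exchange cells, 8 of 29 fell and 4 rose, with a median of -0.00330. For 34 lung epithelial transcription factors 23 of 74 fell and 15 rose, with a median of -0.0151. For 14 genes of epithelial adhesion and keratins 1 of 15 fell and 5 rose, with a median of 0.0112. For 18 genes of lung budding signals 12 of 36 fell and 9 rose, with a median of -0.0461. For 12 airway and neuroendocrine genes 1 of 5 fell and 1 rose.

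**Figure D5:**
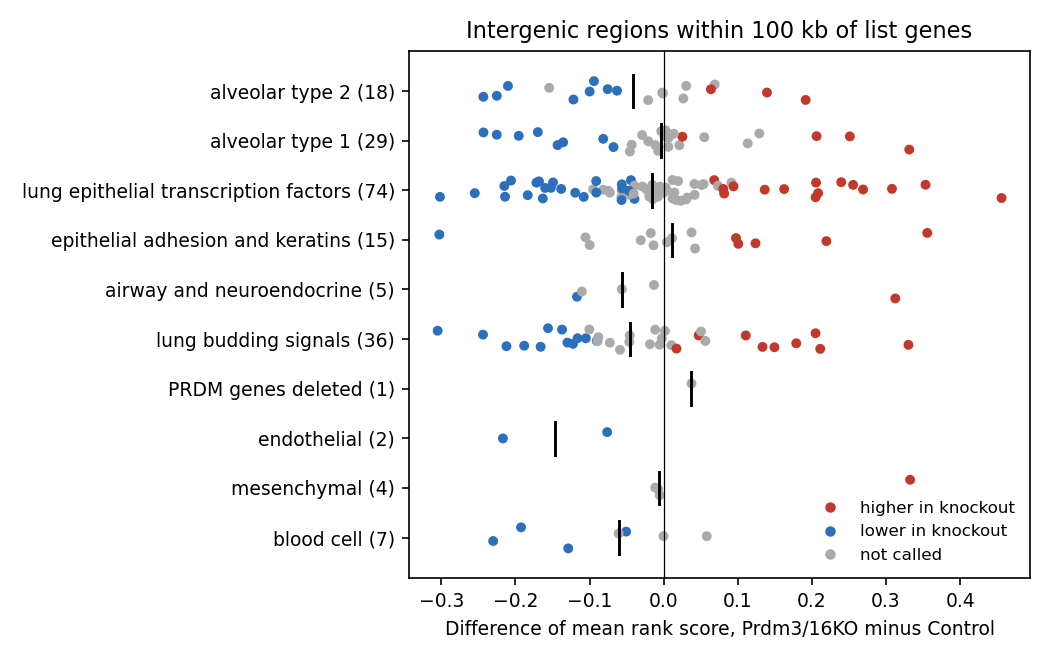
Difference of mean rank score, Prdm3/16KO minus Control (x axis), of each intergenic region open in all 11 libraries within 100 kb of a gene of the named list (y axis, number of regions in brackets). Red points are called higher, blue points lower and grey points not called, black lines mark list medians, and called regions lie on both sides of 0 in 6 of 10 lists.

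Among surfactant cell genes, the region 14206 bp from Scd1, a fatty acid desaturase gene, scored 0.766, 0.788, 0.822, 0.773 and 0.771 in knockouts, and 0.857 to 0.896 with a median of 0.888 in controls. All knockouts were lower, with a difference of -0.0999 (SE 0.0139, limma adjusted p = 3.59e-05). A region 43769 bp from Lpcat1, whose enzyme makes surfactant phosphatidylcholine, fell by 0.243, 1 of its 4 regions rose, and the other Scd1 region rose by 0.139. A region 12088 bp from the ETS factor gene Etv5 rose by 0.192. Named after their values were seen, 3 of the 4 regions of Cebpa, a factor of type 2 cell maturation, fell, with differences of -0.0756, -0.0941 and -0.225. Both regions of Slc34a2, a phosphate transporter gene, fell. No region met the rule within 100 kb of Sftpa1, Sftpc, Sftpd or Abca3 as nearest gene. Of 3 near the surfactant protein gene Sftpb, 1 fell by 0.0630.

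Among type 1 cell genes, the region 45649 bp from Vegfa, which encodes an endothelial growth factor, rose to 0.812 ± 0.0402 in knockouts, against 0.606 ± 0.0463 in controls (SD, n = 5 and 6, limma adjusted p = 4.32e-05). Of the 6 regions of Vegfa 2 rose and 1 fell. The one 45174 bp from Igfbp2 rose by 0.251, and the one 12463 bp from the claudin gene Cldn18 fell by 0.243. Hopx, a homeodomain gene of type 1 cells, had 6 regions, of which 1 fell, 1 rose and 4 were not called.

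Among transcription factors, 2 regions belonged to Nkx2-1, the homeobox gene that specifies lung epithelium and is named in the title of the study. The region at chr12:56486404-56487716, 44219 bp from the gene, scored 0.733, 0.849, 0.797, 0.771 and 0.785 in knockouts, and 0.395 to 0.529 with a median of 0.487 in controls. Every knockout was above every control, by 0.308 in the mean (SE 0.0338, limma adjusted p = 3.62e-06). The other, 6118 bp away, scored 0.601 ± 0.0871 in knockouts and 0.582 ± 0.0548 in controls, overlapped between genotypes and was not called (limma adjusted p = 0.749). At 48774 bp from Nfia, a nuclear factor I gene, a region fell to 0.861 ± 0.0173 in knockouts, against 0.952 ± 0.0125 in controls (SD, n = 5 and 6). With peaks ranked by fold its difference was 0.00354. Of 6 regions near Sox4 2 fell, with differences of -0.160 and -0.0442. All 3 regions of Sox11, a progenitor factor named after its values were seen, rose, with differences of 0.205, 0.256 and 0.353. The greatest rise of this list, 0.456, was 74212 bp from the homeobox gene Meis1, and the greatest fall, -0.302, was 73662 bp from Foxa2.

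Among budding signals, the region 95903 bp from Shh, whose locus drives the Cre, scored 0.496, 0.601, 0.545, 0.579 and 0.590 in knockouts, and 0.767 to 0.848 with a median of 0.807 in controls. All knockouts were below all controls, with a difference of -0.244 (SE 0.0275, limma adjusted p = 4.99e-06). The other region of Shh, 33613 bp away, was not called, with a difference of -0.0186. Of 4 regions near Dusp6, an ERK phosphatase gene and FGF target, 3 fell, and the one 18761 bp away scored 0.752 ± 0.0585 in knockouts and 0.918 ± 0.0121 in controls (SD, n = 5 and 6). Among epithelial genes a region near the tight junction gene Ocln fell by 0.303, and regions near Krt8 and Cldn3 rose by 0.356 and 0.219. Epcam, the selection marker, had 3 regions, of which 1 rose and 2 were not called. In the airway list, 1 region near Trp63, the basal cell factor gene, rose by 0.312 and another fell by 0.117, while a region near Notch2 was not called, with a difference of -0.111.

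Of the deleted genes, Mecom had 1 region, 4903 bp away, with 0.772 ± 0.0575 in knockouts and 0.735 ± 0.0451 in controls (SD, n = 5 and 6, limma adjusted p = 0.322). It lies outside the gene body, so it does not check the deletion. Prdm16 had none within 100 kb.

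Regions near genes of other cell types were also found in every library. Their counts stand beside 24.1% lower and 20.7% higher over all regions tested and were not tested against them. Of 6 endothelial genes, Cdh5 and Emcn had 1 region each and both fell, to summed scores of 1.19 to 1.42 in knockouts, against 1.53 to 1.67 in controls. Pecam1, Kdr, Tek and Cldn5 had none. Of 6 blood cell genes, 4 had a total of 7 regions, 4 of which fell, among them 2 near Runx1 and 2 near Ptprc. Calls were lost in 1 and 8 alternatives at the Runx1 regions and in 5 at a Ptprc region. The summed scores of the 7 regions were 3.67 to 4.25 in knockouts and 4.20 to 4.92 in controls, and Gata1 and Tal1 had none. Of 8 mesenchymal genes, 3 had a total of 4 regions, and only that near Acta2, the smooth muscle actin gene, changed, by 0.332. Their summed scores were 2.69 to 3.01 in knockouts and 2.32 to 2.91 in controls. The region near Tbx4 and both near Col1a1 were not called, with differences of -0.0115, -0.00539 and -0.00749. The part of other cells in the remaining results was not tested.

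Non-coding genes were common among these regions. The body of a long non-coding RNA gene overlapped 1894 of them (23.6%), against 20.3% of the intergenic regions found in 3 to 10 libraries, 7.87% of the regions inside genes and 13.3% of those at gene ends. A start of a long non-coding RNA lay within 1 kb of 527 regions. Of these 23.3% were lower and 13.7% higher in knockouts, and of the other 7488 regions 28.2% were lower and 20.4% higher. Their median score was 0.728 against 0.704, and their median width 945 bp against 843 bp. The difference in calls was not tested.

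Long non-coding RNAs with a name of their own, taken as the 29 whose symbol is not a serial one, had 4 that fell and 4 that rose, and the others were not called, beside 24.1% lower and 20.7% higher over all regions tested. Starts of 6 genes with an Snhg symbol, which stands for host genes of small nucleolar RNAs, were among them, and none was called. Snhg8 scored 0.954 in knockouts and 0.950 in controls, Snhg5 0.946 in knockouts and 0.940 in controls, and Snhg15 0.923 in knockouts and 0.911 in controls. Snhg3 scored 0.770 in knockouts and 0.798 in controls, Snhg12 0.683 in knockouts and 0.631 in controls, and Snhg16 0.558 in knockouts and 0.542 in controls. Chaserr, which restrains the neighbouring remodeller gene Chd2, scored 0.980 in knockouts and 0.973 in controls and was not called. The start of Mir205hg fell to 0.796 in knockouts, against 0.884 in controls (limma adjusted p = 0.00356), that of Mir99ahg fell by 0.110 and that of Tincr, known from epidermal differentiation, by 0.0710. Dancr rose to 0.835 in knockouts, against 0.757 in controls (limma adjusted p = 0.00489). The other rises, at Mirc35hg, Zmiz1os1 and Mir22hg, were by 0.0777, 0.0658 and 0.0639, and the other fall, at Junos, by 0.0385. Crnde lies 1053 bp from Irx5 and was not called.

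Of the starts whose sequences stand above, Gm41239 was not called, and the other 4 were picked for the size of their change. The region of 1810064F22Rik scored 0.385, 0.177, 0.376, 0.378 and 0.263 in knockouts, and 0.640 to 0.727 with a median of 0.709 in controls. All knockouts were lower, with a difference of -0.376 (SE 0.0463, limma adjusted p = 1.23e-05). Gm41485, 15960 bp from Map3k7cl, fell to 0.395 ± 0.0876 in knockouts, against 0.696 ± 0.125 in controls (SD, n = 5 and 6). The region of Gm30263, 22260 bp from Syt7, scored 0.675, 0.826, 0.811, 0.817 and 0.785 in knockouts, and 0.0860 to 0.544 with a median of 0.233 in controls. All knockouts were higher, with a difference of 0.530 (SE 0.0700, limma adjusted p = 2.48e-05). Gm46545, 93593 bp from the repressor gene Bcl6, rose to 0.885 ± 0.0228 in knockouts, against 0.417 ± 0.121 in controls.

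Of the 30 regions within 2 kb of a microRNA hairpin, 5 fell and 3 rose, beside 24.1% lower and 20.7% higher over all regions tested. The rises were near Mir7233, Mir7680 and Mir22, by 0.130, 0.107 and 0.0639 (limma adjusted p = 0.000298, 0.0003 and 0.0224). The rising Mir22 region lies 1912 bp from the hairpin and is the Mir22hg start counted above. A region closer to that hairpin, at 188 bp, scored 0.660 in knockouts and 0.661 in controls and was not called (limma adjusted p = 0.999). The region over the miR-200c hairpin, which also lies 16 bp from that of miR-141, scored 0.762 in knockouts and 0.813 in controls and was not called (limma adjusted p = 0.160). The region over let-7i scored 0.835 in knockouts and 0.822 in controls, and that over the hypoxia-induced miR-210 scored 0.964 in knockouts and 0.973 in controls, neither called. A region 1100 bp upstream of the first hairpin of the cluster of miR-17, miR-18a, miR-19a, miR-20a, miR-19b and miR-92a, which is known for its role in lung growth, scored 0.960 in knockouts and 0.936 in controls and was not called (limma adjusted p = 0.0979). The miR-135a region 689 bp from its hairpin fell to 0.332 in knockouts, against 0.654 in controls (limma adjusted p = 0.00318). Knockout replicate 4, at 0.631, lay within the control range of 0.542 to 0.726. A second region, 1745 bp from that hairpin, scored 0.508 in knockouts and 0.557 in controls and was not called (limma adjusted p = 0.488). The region 1428 bp from miR-34a, a target of p53, fell to 0.404 in knockouts, against 0.564 in controls (limma adjusted p = 0.0397). Here too the groups overlapped, with knockouts up to 0.458 and controls from 0.388.

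Summits, the points of highest signal, were not used by the rule. In most regions they stayed in place: the median SD of the best summit over 11 libraries was 12.6 bp, and 35.9% of regions had an SD of 10 bp or less. Summit positions were compared with limma over all 28339 regions open in all 11 libraries. The summit moved by 50 bp or more between genotypes in 144 of the 8015 regions (1.80%), against 1.53% of all regions compared. At gene ends 94 of 10439 and inside genes 195 of 9885 moved. The median move was 252 bp, and 27 exceeded 500 bp. Of the 144, 65 also rose in rank score, 18 fell and 61 were not called. Over the 8015 regions 19.9% rose and 27.8% fell, and over all regions tested for rank score 20.7% and 24.1%. Score and summit were read from the same best peak, and a link between them was not tested. The count of moved summits was 94 to 110 when 1 library at a time was left out, with 95 without control replicate 1 and 94 without control replicate 4. It was 494 when a rank-weighted mean of a region's summits was used.

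Only the summit of a region's best peak was compared, so a move can be a change in which of several peaks ranked first. The regions named here held a mean of 1.83 to 4.4 peaks per library in a genotype, and this was not tested further. The greatest move was in a 2037 bp region 93202 bp from Lrig2, a leucine-rich repeat receptor gene. It had a mean of 3.8 peaks in knockouts and 4.17 in controls. Its best summit lay 616 to 649 bp from the region's start in knockouts and 1675 to 1836 bp in controls, a shift of -1163 bp (SE 26.2, limma adjusted p = 2.78e-10). Its rank score did not change by the test, with 0.779 in knockouts and 0.716 in controls. A 1730 bp region 12436 bp from Scel, which encodes sciellin, had its summit at 1442 to 1463 bp in knockouts and at 517 to 550 bp in controls, a shift of 919 bp (SE 6.43, limma adjusted p = 1.04e-14). A region 146270 bp from Cd83, an immune cell receptor gene, had its summit at 253 to 470 bp in knockouts and at 1250 to 1288 bp in controls, and its score rose by 0.247. In a region 9896 bp from Aqp11, an aquaporin gene, the summit lay at 149 to 158 bp in knockouts. In controls it lay at 163 bp in replicate 5 and at 1300 to 1322 bp in the others, and the call was lost in 11 alternatives (shift -965 bp, limma adjusted p = 0.0362).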

How the data were processed

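Each of the 11 ATAC-seq libraries came with 1 peak list, deposited in a narrowPeak layout without a header. The submitters' processing notes name mm10, MACS2, DiffBind 3 and deepTools, without roles, and the sources used here give no aligner or filter. Units were judged by the range of each column. The whole-number score that the authors deposited played no part. The authors' fold enrichment, a ratio to background, and the -log10 p-value and -log10 q-value of each peak were taken to be made by the authors within each library. Read depth is unknown, so ranks within a library were compared, and no interval or floor that needs depth is given.

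Regions followed the rule in the report, with gene ends taken as those of protein-coding genes of the RefSeq table for GRCm38.p6, the build called mm10. Overlap of 1 bp merged peaks. Rank scores, set to 0 where a library had no peak, were fitted over the 65877 regions found in 3 or more libraries. The fit used R 4.3.3 and limma 3.58.1 with the trend and robust options, and genotype was its only term. P-values were Benjamini-Hochberg adjusted over all regions, at 0.05. Summit positions were fitted the same way over 28339 regions, with a shift of at least 50 bp. Both fits were tested on simulated data. Other steps used pandas 2.3.3, numpy 2.4.6 and scipy 1.17.1 under Python 3.11.15, and matplotlib 3.10.9 for plots.

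Named regions were the 10 strongest, the 8 greatest falls and rises, the 5 farthest, those of the genes nearest to most regions, the 3 longest runs, the 4 greatest summit shifts and up to 3 per gene list by p. Start windows were picked outside chromosome 18. Named non-coding starts, microRNAs and other genes were chosen after their values were seen. The regions, lists and tests were chosen with earlier results of these data known. Alternatives covered list length, ranking column, score scale, regions fitted, fit, replicate block, windows, gene distance, overlap, summit definition and leaving out each library.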

Additional observations from a re-analysis of the deposited data

Results flagged for a closer look

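Over the named regions and the values per library, 128 groups of 5 or 6 libraries were examined for a library far from the others of its group, and 8 were marked. Chance marks about 1 in 20 groups. Knockout replicate 5 had 16.98% of its kept peaks in the regions, against 15.0% to 15.4% in the other knockouts. It also scored 0.716 at the region 34938 bp from Sox4, against 0.668 to 0.682 in the others. Knockout replicate 3 scored 0.0797 at the St8sia2 region, against 0.207 to 0.254. Knockout replicate 4 scored 0.641 at the Slc10a2 region, against 0.753 to 0.786, and knockout replicate 2 scored 0.772 at the Etv5 region, against 0.838 to 0.858. Among the strongest regions knockout replicate 1 scored 0.9998 at the second Tyrp1 region, where it ranked 14 against 13 in the other knockouts. Control replicate 5 scored 0.998 at the Fgfbp1 region, the lowest of 6. At the first Tyrp1 region it scored 0.9999, the highest of 6, and ranked 8 against 9 in the other controls. The other libraries of the group tied at both Tyrp1 regions, so the smallest step gives a mark there and the chance rate does not apply.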

How the results depend on the processing

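The rule gave 4659 regions when only the stronger part of each list was kept, against 8015, and between 7507 and 8563 under the other alternatives run. The median distance was 37052 bp when regions within 3 kb of a gene end were left out. The median score was 0.761 with peaks ranked by fold and 0.641 with the mean over a region's peaks. The count of regions lower in knockouts was 1392 with peaks ranked by fold and 1982 to 2989 under the other alternatives. The count higher was 1048 with the lists as deposited, where equal ranks score higher in longer lists, and 1256 to 1696 under the others. Ranked by fold, 1131 of the 2232 falls and 938 of the 1596 rises were called again, and 27 regions were called in the opposite direction. Replicate numbers are shared between genotypes, but no label says that they pair libraries. Deviations of same-numbered libraries correlated at -0.0171 to 0.0579, in 0 of 5 pairs over 0.1, and 0 of 5 knockouts correlated best with their own number. With the replicate block 2071 were lower and 1470 higher, and 67 summits moved in place of 144. A rank-weighted mean summit gave 494. Leaving out 1 library at a time gave 8058 to 8563 regions, 2031 to 2181 lower, 1453 to 1572 higher and 94 to 110 moved summits, with 95 and 94 without control replicates 1 and 4. The causes were not tested.

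Of the named regions, the one near Nfia had a difference of 0.00354 when ranked by fold. The Col1a1 region 19301 bp away, not called at -0.00539, turned to 0.0386 ranked by fold, 0.000158 with centred scores and 0.000123 with the replicate block, and ranged from -0.0196 to 0.00273 with 1 library left out, with 0.000246 and 0.000492 without knockout replicates 3 and 4, and 0.00273 and 0.000123 without control replicates 2 and 6. The one near Tbx4 ranged from -0.0289 to 0.0015 with 1 library left out, and turned to 0.000655 without knockout replicate 2 and to 0.0015 without control replicate 5. The Aqp11 summit lost its call in 11 settings. Apart from the Aqp11 summit, calls were lost at regions near Runx1, Ptprc, Trp63, Scd1 and Spry2 in 1 to 8 settings each, and the region near Notch2 was called in 3. Depth is unknown, and the weakest library limits which regions appear in every list.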
